A study of Mus musculus with 7 samples.

Results

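The growth hormone and Igf1 axis was examined in the liver of old female mice through 10 genes chosen by name: Igf1, Igfals, Ghr, Socs2, Cish, Stat5a, Stat5b, Igfbp3, Mup3 and Mup5. All 10 had at least 1 probe set, a group of short probes read as 1 value, whose platform annotation named that gene alone. Together they had 16 probe sets, out of 10833 that named a single gene, and they are 10 of the 8251 genes so named. Liver RNA had been hybridised to 7 Affymetrix mouse U74Av2 arrays, 1 per sample, and the titles number the samples 1, 2, 3, 4, 6, 7 and 8, which serve as replicate numbers here. The single group was labelled normal ad libitum: females with normal phenotype, genotype +/+ or +/df, with free access to pelleted food, whose livers were taken at an age of 24 to 26 months. The description field of the same labels names Ames dwarf (df/df) females instead, and the titles and source names were followed. No dwarf or food-restricted animals were analysed here, so levels and spread are described and no treatment or genotype is compared. That each array came from a separate animal is not stated outright, so animal below stands for the sample on 1 array. With 1 array per sample, the spread between arrays cannot be split into a technical part and a part between animals.

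Growth hormone leaves the pituitary gland in pulses and acts on the liver through its receptor, Ghr, a membrane protein that carries the kinase Jak2. The kinase activates Stat5a and Stat5b, transcription factors that enter the nucleus and switch on target genes. Among those targets are Igf1, the growth factor that circulates to bone, muscle and other tissues, and Igfals, the acid labile subunit that holds Igf1 and Igfbp3 together in long-lived plasma complexes. Socs2 and Cish, also induced through Stat5, are proteins of the suppressor of cytokine signalling family that damp the signal. Mup3 and Mup5 belong to the major urinary proteins, small pheromone carriers made by the liver, whose expression depends on growth hormone.

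Of the 10 genes, 8 have promoter sequences in the RefSeq table (build GRCm38.p6), 13 windows in all, each running from 250 bases before a transcription start to 50 bases after it. Socs2 and Mup5 had no matched entry there and were not searched. Each window was searched for the Stat5 motif TTCNNNGAA, which reads the same on both strands. Cish and Igfals were the only genes among these 8 with a match, in 3 of the 13 windows. At least 1 match occurred in 8.30% of the 32851 promoter windows of the table, and 0.457% had more than 1. The Cish window (chr9:107296409-107296708, plus strand) had 2 matches, at bases 1 to 9 and 12 to 20 counted from the start of the transcript. Of the 3 Igfals windows, that at chr17:24877981-24878280 (plus strand) had 1 match, at bases -58 to -50, that at chr17:24877594-24877893 (plus strand) had 1 match, at bases -236 to -228, and the other had none. The Cish window and the Igfals window with the match nearer its start are shown, since they carry this motif of the pathway's own transcription factor, with each match in capitals. A match is a stretch of letters and not a measured binding site.
Cish promoter: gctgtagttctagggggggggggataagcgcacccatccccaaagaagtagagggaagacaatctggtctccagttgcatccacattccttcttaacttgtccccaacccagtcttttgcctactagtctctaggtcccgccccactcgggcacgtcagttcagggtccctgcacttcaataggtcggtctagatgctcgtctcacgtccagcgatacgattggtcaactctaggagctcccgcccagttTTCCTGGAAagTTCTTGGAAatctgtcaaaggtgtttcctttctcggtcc
Igfals promoter: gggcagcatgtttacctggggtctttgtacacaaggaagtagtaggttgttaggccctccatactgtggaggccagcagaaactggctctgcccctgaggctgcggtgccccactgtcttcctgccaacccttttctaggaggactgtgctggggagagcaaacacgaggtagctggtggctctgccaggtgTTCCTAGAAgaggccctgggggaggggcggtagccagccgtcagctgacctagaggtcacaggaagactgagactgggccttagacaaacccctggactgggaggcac

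The 7 arrays had nearly equal trimmed means before any rescaling. On each, 27.5% to 29.6% of probe sets lay below the floor of 50.04, to which lower signals were raised before log2 was taken. All 10 hepatocyte markers, albumin (Alb) among them, were tested, with a median signal of 23175. Summed signals of skeletal muscle markers ran from 1013 to 10420, highest on replicate 1, while those of macrophage, stellate cell and endothelial markers varied by less than 2-fold. The bacterial spike-in controls, RNAs added to each sample, split the arrays into a set of 4 (replicates 1 to 4, mean log2 signal 10.64 to 10.97) and a set of 3 (replicates 6 to 8, 10.20 to 10.24), which are called the array sets below. Signals are intensities on a linear scale, and since probe sets bind with different strength, the order of their levels is not an order of transcript amounts.

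**Figure D1:**
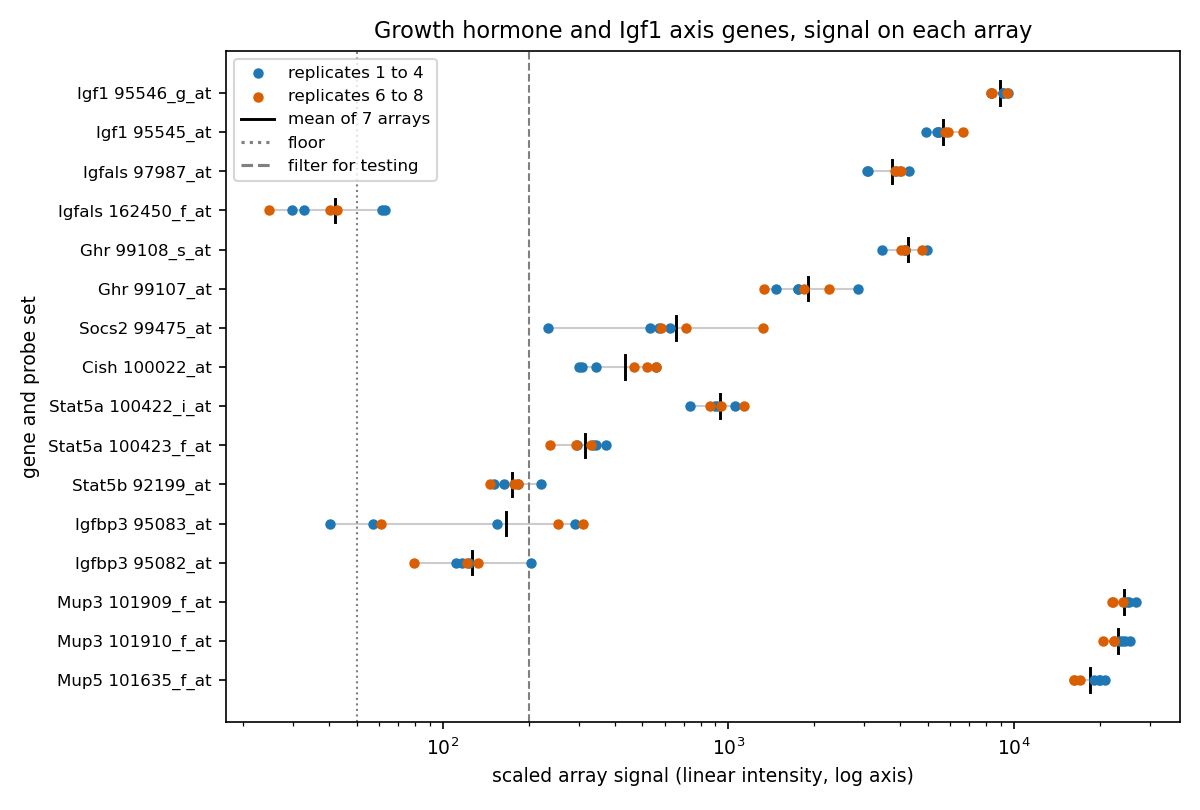
Scaled signal (linear intensity on a log axis) of each of the 16 probe sets on each of the 7 arrays, blue for replicates 1 to 4 and orange for replicates 6 to 8, with the mean as a black bar, the floor dotted and the filter for testing dashed. The urinary protein and Igf1 probe sets lie to the right within narrow ranges, while Socs2 spans 234 to 1321 and the first Igfbp3 probe set 40.2 to 309.5.

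By the brightest probe set of each gene, the order of levels was Mup3, Mup5, Igf1, Ghr, Igfals, Stat5a, Socs2, Cish, Stat5b and Igfbp3. The ranges of neighbours in this order were separate between Mup3 and Mup5, Mup5 and Igf1, Igf1 and Ghr, Igfals and Stat5a, and Cish and Stat5b. Those of Ghr and Igfals, Stat5a and Socs2, Socs2 and Cish, and Stat5b and Igfbp3 overlapped. Of the 10 genes, 5 ranked in the top 5% of the 8251 named genes, and the median of the 10 was 2338, against 242.9 for all named genes. The 5 were Mup3, Mup5, Igf1, Ghr and Igfals. The transducer Stat5a lay at the 81.1 percentile, and Socs2 and Cish, also induced by the hormone, at the 73.9 and 64.3 percentiles. In whole liver RNA, fewer cells that express a gene and less of its RNA per cell cannot be told apart.

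The receptor was represented by 2 probe sets. On the brighter one (99108_s_at, of a kind that can match more than 1 transcript), Ghr had 3453 on replicate 1 at the lowest, a median of 4171 and 4974 on replicate 2 at the highest, or 4252 ± 503 (SD, n = 7). On the other (99107_at) it had 1329.5 on replicate 8, a median of 1762 and 2859 on replicate 3, or 1897 ± 515. The dimmer probe set varied more, with a log2 SD of 0.37 against 0.17, and neither put the animals in the other's order. Replicate 2, highest on the first, was at 1756 on the second, below its median. Across animals the 2 probe sets had r = -0.10 (exact permutation p = 0.859, adjusted p = 0.859 over 5 such pairs) and Spearman's rho = -0.18 (p = 0.713, adjusted p = 0.713). Without replicates 1 and 2, the farthest from the median of the brighter probe set, r was -0.74, and without replicate 8 it was 0.22. The rank of Ghr by its brighter probe set was between 359 and 562 among 12422 probe sets on every array.

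Of the transducers, Stat5a was the brighter. Its first probe set (100422_i_at) had 732 on replicate 2 at the lowest, a median of 919 and 1137 on replicate 6 at the highest, or 936 ± 132 (SD, n = 7). Its second (100423_f_at, which can read related genes) had 238 on replicate 6, a median of 330.1 and 373 on replicate 3, or 316 ± 44.2. Replicate 6 was thus the highest on one and the lowest on the other. The 2 probe sets had r = -0.50 (exact permutation p = 0.241, adjusted p = 0.678) and rho = -0.32 (p = 0.498, adjusted p = 0.713). The sign of r rested on that array, since r was 0.02 without replicate 6. Without replicates 2 and 6, the farthest from the median of the first probe set, r was 0.22. Stat5b, the form most tied to growth hormone in liver, had 1 probe set, with 146 on replicate 6, a median of 177 and 221 on replicate 2, or 176 ± 25.1. It lay at the 42.9th percentile of named genes, below the level of 200.1 asked for testing, and above the floor on all 7 arrays.

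The inhibitors Socs2 and Cish varied most among the tested genes of the axis. Socs2 had 628, 234, 574 and 532 on replicates 1 to 4 and 712, 1321 and 580.3 on replicates 6, 7 and 8. Of these 7 values, 5 lay between 532 and 712, with replicate 2 far below and replicate 7 far above them, a 5.64-fold range. The mean was 654 ± 330 (SD, n = 7), and its rank among probe sets ran from 1417 on one array to 5344 on another. The log2 SD of 0.73 was 4.12 times the 0.18 expected at that level, and 1.34% of the 4481 tested genes had an SD as large. Socs2 was the only tested member with an unadjusted p under 0.05 for spread, and it did not pass after adjustment (limma-based F test, adjusted p = 0.343). Without replicate 2 the log2 SD was 0.48, and without replicate 7 it was 0.57.

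Cish fell into a lower and a higher range. It had 301, 307 and 345 on replicates 2, 4 and 1, and 467, 518, 557 and 561 on replicates 7, 6, 8 and 3. The mean was 437 ± 116 (SD, n = 7), with a log2 SD of 0.40 against 0.20 expected (limma-based F test, adjusted p = 0.785). Socs2 and Cish were both lowest on replicate 2 but highest on different replicates, 7 and 3. Their log2 signals had r = 0.52 (exact permutation p = 0.296, adjusted p = 0.581 over 28 pairs) and rho = 0.39 (p = 0.396, adjusted p = 0.692), and r was 0.33 without replicates 2 and 7 and 0.21 with the means of the array sets removed.

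Igf1 had the smallest log2 SD of the tested genes of the axis with the scaling used here, but not under every alternative. Mup3 had a smaller one with median centring (0.108 against 0.116 for Igf1) and with quantile normalization (0.059 against 0.074). Mup3 was also lower with probe sets averaged and without replicate 3. The brighter Igf1 probe set (95546_g_at) had 8348 on replicate 4 at the lowest, a median of 9162 and 9553 on replicate 1 at the highest, or 8919 ± 542 (SD, n = 7), and ranked between 155 and 186 among 12422 probe sets on every array. Its log2 SD was 0.09, where 0.13 was expected at that level, and 5.89% of tested genes had a smaller one. The second probe set (95545_at), designed on the same transcript record, had 4927 on replicate 4, a median of 5456 and 6643 on replicate 7, or 5633 ± 537, with a log2 SD of 0.13. Replicate 4 was the lowest array on both.

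The 2 Igf1 probe sets ordered the animals differently between the array sets. On the brighter one the sets overlapped, at 9059 ± 508 (SD, n = 4) on replicates 1 to 4 and 8733 ± 635 (n = 3) on replicates 6 to 8. On the other they did not: replicates 1 to 4 read 4927 to 5456 and replicates 6 to 8 read 5738 to 6643, the opposite direction to the means of the first. That difference between the sets was not tested for the dimmer probe set. Over all arrays the 2 probe sets had r = 0.30 (exact permutation p = 0.534, adjusted p = 0.859) and rho = 0.29 (p = 0.556, adjusted p = 0.713). With the means of the array sets removed, r was 0.96, with p = 0.0347 by the exact test over the 144 orders within sets, though it did not pass over the 5 pairs (adjusted p = 0.174). Without replicates 4 and 8, the farthest from the median of the brighter probe set, r was 0.02 with set means kept, and without replicate 7 it was -0.10. On replicates 6 to 8 both probe sets had the order 7, 6, 8, and on replicates 1 to 4 they had replicate 4 lowest and replicate 2 next, with replicates 1 and 3 exchanged. Sets of 4 and 3 arrays are too few for a correlation each.

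**Figure D2:**
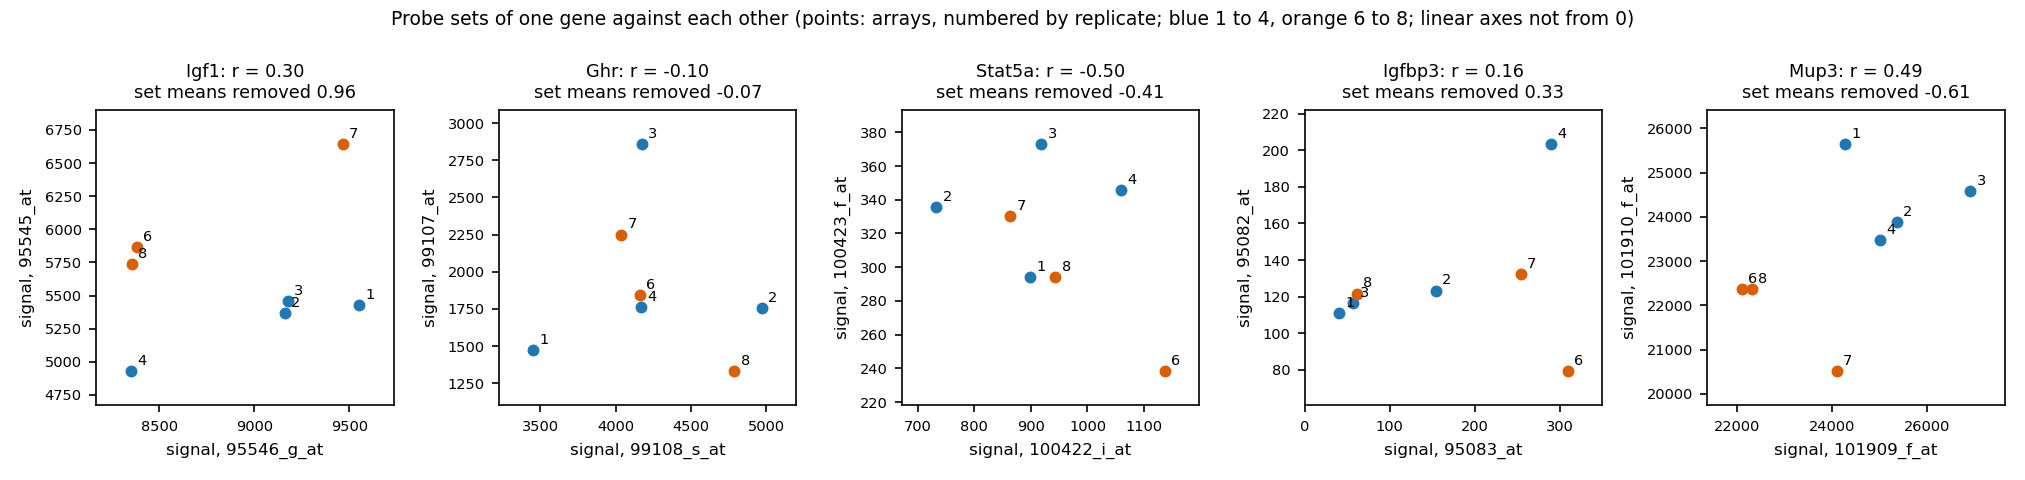
Signal of the brighter (x axis) against the dimmer probe set (y axis) of Igf1, Ghr, Stat5a, Igfbp3 and Mup3 on linear axes that do not start at 0, a point per array numbered by replicate, blue for replicates 1 to 4 and orange for replicates 6 to 8. In the Igf1 panel the 2 colours lie apart on the y axis (r = 0.30 over all arrays, 0.96 with set means removed), and in the Mup3 panel both axes separate the colours (r = 0.49, and -0.61 with set means removed).

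Igfals, the partner of Igf1 in plasma, had 3065 on replicate 2 at the lowest, a median of 3870.4 and 4307 on replicate 4 at the highest, or 3741 ± 478 (SD, n = 7). Replicates 2 and 3, at 3065 and 3092, lay below the other 5, which ran from 3827 to 4307. Its log2 SD of 0.19 was close to the 0.15 expected at that level (adjusted p = 0.990). A second probe set (162450_f_at) had 42.0 ± 14.9 and lay below the floor on 5 of 7 arrays, so only the first gives the gene a level. Igfals and Cish, the genes with a Stat5 motif in the windows shown above, had r = -0.01 across animals (exact permutation p = 0.974, adjusted p = 0.974) and rho = 0.07 (p = 0.906, adjusted p = 0.976). That r was -0.41 without replicates 2 and 3 and -0.42 with set means removed.

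Igfbp3, the binding protein that carries most circulating Igf1, was the dimmest of the 10 genes in this liver RNA. Its first probe set (95083_at) had 40.2, 154, 56.9 and 290.01 on replicates 1 to 4 and 309.5, 254 and 61.0 on replicates 6, 7 and 8. Of these arrays 3 lay between 40.2 and 61.0 and the other 4 between 154 and 309.5, with both array sets on both sides, and the 40.2 of replicate 1 was under the floor. The second (95082_at) had 79.2 on replicate 6, a median of 122 and 203 on replicate 4, or 127 ± 37.7 (SD, n = 7). Replicate 6 was the highest on one probe set and the lowest on the other. Over all arrays they had r = 0.16 (exact permutation p = 0.703, adjusted p = 0.859) and rho = 0.25 (p = 0.595, adjusted p = 0.713). Without replicate 6, r was 0.76 (exact permutation p = 0.00139, adjusted p = 0.00694), but without replicate 4 it was -0.34. Without replicates 1 and 3, the farthest from the median of the first probe set, it was 0.04. Neither probe set reached the mean signal asked for testing. No detection calls were used here, so whether these readings stand above background is not known.

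The urinary proteins were the brightest members. Mup3 had 24270.4, 25357, 26905 and 25009 on replicates 1 to 4 and 22091, 24088 and 22297 on replicates 6, 7 and 8 (101909_f_at), or 24288 ± 1700.0 (SD, n = 7). Its second probe set (101910_f_at) ran from 23471 to 25643 in the first array set and from 20509 to 22373 in the other. Mup5 (101635_f_at) had 19186 to 20960.1 on replicates 1 to 4, with a mean of 20021 ± 729, and 16211.5 to 17043 on replicates 6 to 8, with a mean of 16502 ± 469. All 3 probe sets were thus higher on every array of the first set than on any of the second. They can all read other genes of this closely related family, so they do not give 3 separate measurements.

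Between the array sets, Mup5 was 0.28 higher on the log2 scale on replicates 1 to 4 (SE 0.06, limma adjusted p = 0.536) and Mup3 was 0.15 higher (SE 0.07, adjusted p = 0.706), and neither passed. These were the 2 of 8 tested members whose values did not overlap between the sets, against 7.34% of all 4481 tested genes. In the same direction, higher in the first set, 3.73% of tested genes did not overlap. Of all tested genes, 0 passed that comparison in limma and 309 (6.90%) had an unadjusted p under 0.05, among them 3 of the 8 members, Cish, Mup3 and Mup5. The other bright genes moved the same way: of 25 tested genes outside the axis with a mean at least that of Mup5, 22 were higher on replicates 1 to 4 and 10 did not overlap, all 10 in that direction, with a median difference of 0.13. The summed signal of the 10 hepatocyte markers ran from 178410 on replicate 6 to 216422 on replicate 3, the arrays where the first Mup3 probe set was also lowest and highest. Some of these markers, Alb, Apoe and Apoa1 among them, also belong to those 25 bright genes, so the sum is not a separate observation. With quantile normalization, which evens out the brightest values by construction, the difference was 0.02 for Mup3 and 0.17 for Mup5. The part of the array sets and of the hepatocyte marker signal in the urinary protein signals was not tested.

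The 2 Mup3 probe sets had r = 0.49 (exact permutation p = 0.271, adjusted p = 0.678) and rho = 0.64 (p = 0.139, adjusted p = 0.694), and r was 0.34 without replicates 3 and 6. Both probe sets were higher in the first array set. With set means removed r was -0.61, which did not pass (exact permutation within sets p = 0.243, adjusted p = 0.608). With so few arrays per set, whether the probe sets followed each other within the sets cannot be told. Mup3 and Mup5 had the highest correlation of any pair of members, r = 0.78 (exact permutation p = 0.0448, adjusted p = 0.569 over 28 pairs) and rho = 0.89 (p = 0.0123, adjusted p = 0.344). That r was 0.68 without replicates 3 and 6 and -0.01 with set means removed.

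Of the 8 members that could be tested, 0 passed the limma-based F test at an adjusted p under 0.05, as did 0% of all 4481 tested genes, and 1 of 8 had an unadjusted p under 0.05, against 6.72% (301 genes). Their median log2 SD was 0.18, and that of all tested genes was also 0.18. Of the 8, 6 had an SD above that expected at their level, against 49.1% of tested genes. The spread ran from 0.09 for Igf1 to 0.73 for Socs2, and the widest were the inhibitors Cish and Socs2, at the 92.8 and 98.7 percentiles of SD among tested genes.

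**Figure D3:**
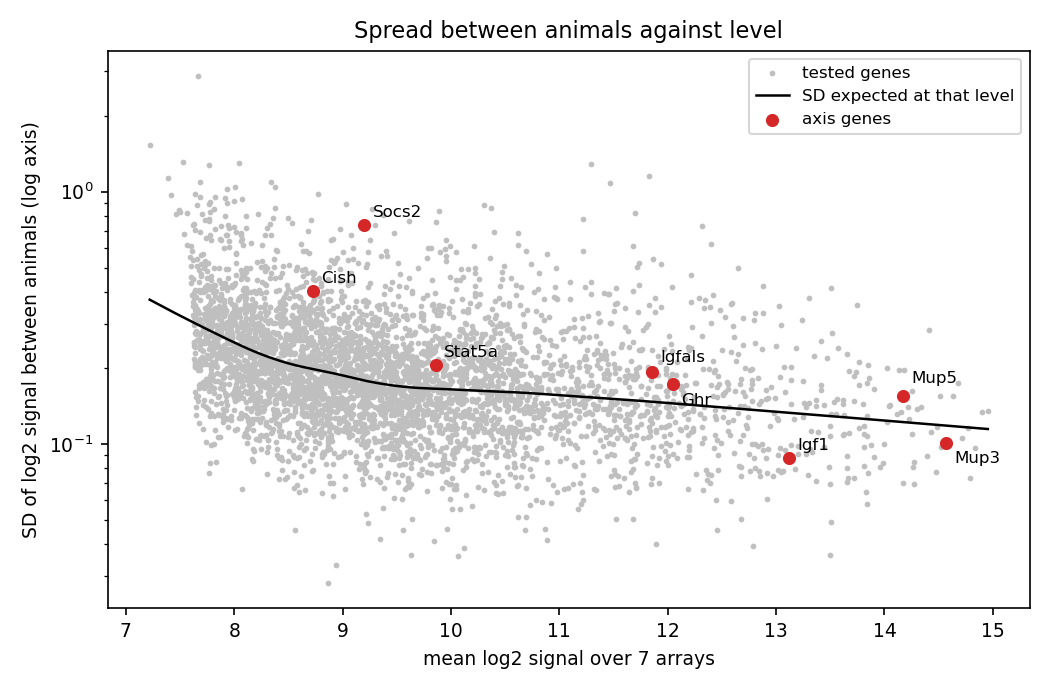
SD of log2 signal between animals (log axis) against mean log2 signal for the 4481 tested genes in grey, with the SD expected at each level as a line and the 8 tested axis genes in red. Socs2 (0.73) and Cish (0.40) lie well above the line, and Igf1 (0.09) and Mup3 (0.10) below it.

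Pairs of members were compared across animals, each gene by its brightest probe set. No pair was tested with a second probe set, so whether its r depends on the probe set read is not known. Over all arrays the 2 probe sets of a gene had r = -0.50 for Stat5a, -0.10 for Ghr, 0.30 for Igf1 and 0.49 for Mup3. Of the 28 pairs of tested members, 0 passed the exact two-sided permutation test of r after adjustment over the pairs (smallest adjusted p = 0.456). By that test 2 had an unadjusted p under 0.05, and 11 had an r above 0. Igf1 had r between -0.68 and 0.51 with the other 7. With Stat5a it had r = -0.68 (exact permutation p = 0.0940, adjusted p = 0.569), with its partner Igfals r = -0.52 (exact permutation p = 0.276, adjusted p = 0.581) and with Ghr r = -0.43 (exact permutation p = 0.312, adjusted p = 0.581), none of which passed. Spearman's rho was -0.64, -0.64 and -0.54 for these (exact permutation p = 0.139, 0.139 and 0.236, adjusted p = 0.556, 0.556 and 0.600), r without replicates 4 and 8 was -0.68, -0.18 and -0.33, and with set means removed it was -0.65, -0.44 and -0.41.

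By r, only Socs2 and Mup5, besides the urinary protein pair, had an unadjusted p under 0.05. Their r was -0.75 (exact permutation p = 0.0163, adjusted p = 0.456), and rho was -0.79 (p = 0.0480, adjusted p = 0.448). Replicate 2 had the lowest Socs2 and the highest Mup5. That r was -0.58 without replicates 2 and 7, the farthest from the median of Socs2, and -0.74 with set means removed. Igfals and Stat5a, with an unadjusted p under 0.05 by rho alone, had r = 0.70 (exact permutation p = 0.0788, adjusted p = 0.569) and rho = 0.79 (p = 0.0480, adjusted p = 0.448). Their r was 0.65 without replicates 2 and 3 and 0.66 with set means removed. These values are for the first Stat5a probe set. Igfals was not compared with the second, which had r = -0.50 with the first.

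**Figure D4:**
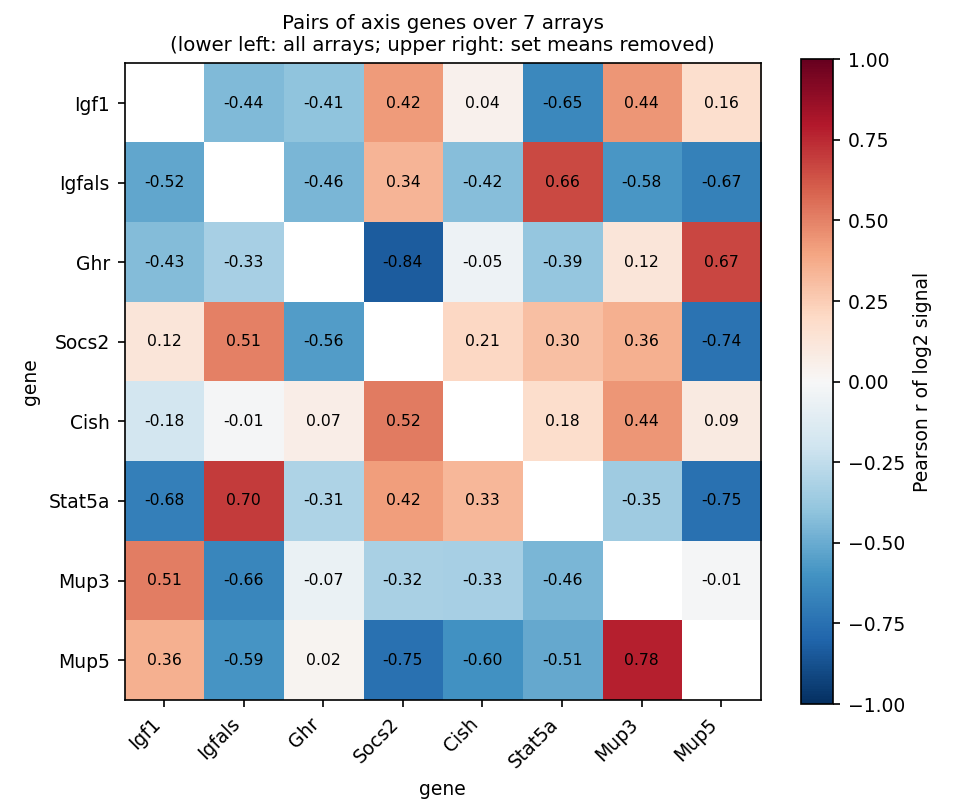
Pearson r of log2 signal over 7 arrays for each pair of the 8 tested axis genes, on a colour scale from -1 to 1, over all arrays in the lower left and with set means removed in the upper right. Each gene is read on its brightest probe set. The Mup3 and Mup5 cell goes from 0.78 to -0.01 and that of Socs2 and Mup5 from -0.75 to -0.74, and 0 of the 28 pairs over all arrays passed after adjustment.

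Among all 4481 tested genes, the 5 whose log2 signal followed the brighter Igf1 probe set most closely over the 7 arrays were Atxn10 (r = 0.97), Nipsnap2 (0.97), Gstp1 (0.96), Gclc (0.95) and Tmem176b (0.95). These are the top of a search through all tested genes over 7 arrays that share the array sets above, and are given as a description. As a ratio of highest to lowest signal, Nipsnap2 covered the widest range of the 5, 343 to 696, and Gclc, a subunit of the enzyme that starts glutathione synthesis, the narrowest, 1352 to 1554. Gstp1, a glutathione transferase of higher level in male liver, was at 6984 ± 958 (SD, n = 7).

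Other genes of the pathway were looked up from named lists. Of 25 genes for receptors, kinases, adaptors and inhibitors of the signal, 19 were on the array and 10 were tested, and 0 of these had an unadjusted p under 0.05 for spread. The brightest were Stat3, a transcription factor of cytokine signals, at 1158 ± 183, the kinase Jak1 at 1026 ± 49.6 and the adaptor Shc1 at 805 ± 66.3 (SD, n = 7), and the kinase Tyk2 had the largest log2 SD, 0.41. Of 12 genes of the Igf system, 9 were on the array and 6 tested: 0 passed and 2 had an unadjusted p under 0.05, against 6.72% of all tested genes. They were Igfbp1 and Igfbp2, binding proteins that respond to feeding and hormones. Igfbp1 ran from 223 on replicate 8 to 1309.5 on replicate 4 (limma-based F test, adjusted p = 0.265), and Igfbp2 from 3431 on replicate 6 to 7011 on replicate 1 (adjusted p = 0.600). Igfbp4 at 8429.9 ± 1058 and the clearance receptor Igf2r at 639 ± 51.3 were the other bright members.

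Of 11 liver transcription factors that act beside growth hormone, 10 were on the array and 7 tested, with 0 passed and 2 at an unadjusted p under 0.05, against the same 6.72%. Cebpa, which sustains hepatocyte differentiation, had 11538 ± 640.5, the nuclear receptor Nr1i3 had 5597 ± 768 and Cebpb had 2466 ± 389. Onecut1, itself induced by growth hormone, had the largest log2 SD of this list, 0.58, from 167 on replicate 2 to 525 on replicate 3 (adjusted p = 0.512). Of 22 further hormone-responsive liver genes, 14 were on the array and 12 tested. Among these 12, 0 passed and 6 had an unadjusted p under 0.05, against 6.72% of all tested genes. Cyp2b9, a P450 of higher level in females, had 7500.4 ± 505, and the cytokine receptor Lifr had 4492 ± 510.2. Cyp17a1, a steroid hydroxylase, spread most, from 767 on replicate 3 to 3779 on replicate 8 (adjusted p = 0.265).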

How the data were processed

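Liver RNA of 7 samples in 1 group was measured on 1-colour arrays. The deposited values are intensities per probe set, on a linear scale; they had been scaled, since the trimmed means were 500.36 to 500.39 on every array. The software is not given in the sources used here. Of 12488 probe sets, 66 were controls, 396 named several genes and 1193 named none. These were not used for genes. The number of arrays limits the precision.

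Each array was scaled to 1 trimmed mean (2% cut at each end), values under 0.1 of it (50.04) were set to that floor, and log2 was taken. The brightest probe set stood for a gene, and the 4481 genes whose mean reached 0.4 of that trimmed mean (200.1) entered the tests. An intercept-only limma 3.58.1 fit (R 4.3.3) set each variance against a trended robust prior (5.61 degrees of freedom) by a one-sided F test for excess, Benjamini-Hochberg adjusted over all tested genes at 0.05. The step was also run on data simulated from its own fitted means and spreads, which cannot check the model behind it. Correlations over arrays used exact two-sided permutation tests over 5040 orders, adjusted over 5 probe set pairs or 28 gene pairs. The 2 arrays left out as farthest were those farthest from the median of the brighter probe set, or of the first-named gene of a pair. Removing set means used 144 orders. The difference between array sets used limma with a trended robust prior. Ranks and motif searches ran in Python 3.11.15 with pandas 2.3.3 and numpy 2.4.6, and plots in matplotlib 3.10.9.

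Named genes were all members, from each list up to 3 of the highest mean and the 1 tested gene of the largest log2 SD, and the 5 most like Igf1. Igfbp2 also met the first of these rules. The members, lists and tests were chosen with earlier results of these data known. The array set comparison, probe set ranks and the motif search were added after seeing the data. Alternatives for the test of spread were other scalings, floors, filters, priors, probe set rules, the array set as a term and leaving out each array. Those for correlations were median centring, quantile normalization, a higher floor and an offset instead of a floor. Spearman's rho, removal of set means and leaving out arrays were also used for them, but no other probe set rule.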

Additional observations from a re-analysis of the deposited data

Results flagged for a closer look

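On the second Igfbp3 probe set (95082_at), replicate 4 stood far above the rest, at 203 against 132.5 on the next highest array. The gap took up 0.571 of the range of the 7 arrays, just past Dixon's 95% critical value for 7 values. Chance flags about 1 in 20 such groups, and 1 of the 16 probe sets passed that value. The first Igfbp3 probe set read 290.01 on the same array, below the 309.5 of replicate 6. Socs2 on replicate 7 came close without passing, with a gap of 0.560 of its range.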

How the results depend on the processing

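The count of members past the test of spread was 0 under each of the 20 alternatives run, and that of genes was 0 except for 1, Acta1, with an offset instead of a floor; leaving out 1 array gave 0 to 1 genes (1 without replicate 4 and without replicate 6). The adjusted p of Socs2 ranged from 0.275 to 0.887. Members with an unadjusted p under 0.05 numbered 2 with the filter at 0.2 of the trimmed mean, which lets Igfbp3 in, 0 with no filter, and 1 to 2 without 1 array (2, with Cish, without replicate 1 and without replicate 7). With no filter 902 genes had an unadjusted p under 0.05. For probe sets of 1 gene, 0 pairs passed except 1 (Igfbp3) without replicate 6, so leaving out 1 array gave 0 to 1, and 1 pair (Igf1) had an unadjusted p under 0.05 with set means removed. For pairs of genes, 0 passed under every alternative run; those with an unadjusted p under 0.05 numbered 0 without the 2 arrays farthest from the median, 0 with set means removed, 1 with median centring, 1 with quantile normalization and 1 to 3 without 1 array.

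Among the correlations of probe sets, of Igf1 with other members and of the other pairs described above, those that changed sign, none of them past the adjusted threshold over all arrays, were the probe sets of Igf1 (-0.10 to 0.45 over arrays left out), Ghr (-0.62 to 0.22), Stat5a (-0.72 to 0.020, and 0.22 without the 2 farthest arrays), Igfbp3 (-0.34 to 0.76) and Mup3 (-0.61 with set means removed, -0.42 with quantile normalization). So did the gene pairs Igf1 and Socs2 (-0.29 to 0.49), Igf1 and Cish (-0.55 to 0.024, rho 0.036, and 0.039 with set means removed), Igf1 and Mup3 (-0.39 with quantile normalization) and Mup3 and Mup5 (-0.0084 with set means removed), and Igfals and Cish (-0.54 to 0.36, rho 0.071, and 0.071 with quantile normalization). Other pairs of members also changed sign and are not listed. No alternative read a pair of genes on other probe sets. The log2 difference of Igf1 between array sets, 0.05, was -0.0018 with quantile normalization and -0.072 with the mean of all probe sets, and 1 member rather than 2 did not overlap between the sets with quantile normalization. Of the levels, spreads and percentiles of members, 5 alternative log2 means moved by at least the gene's own SD between animals and 6 alternative log2 SDs by over 1.5 times. Averaging probe sets lowered the mean log2 of Igfals to 8.80, as its second probe set lies near the floor, and its SD to 0.11; the SD of Stat5a became 0.10 and that of Igfbp3 0.66, and quantile normalization took that of Mup3 to 0.06. For other changes the cause was not tested. No paired analysis was possible because all 7 arrays formed 1 group.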

Other observations

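Genes of the pituitary gland, the source of growth hormone, were read on the same arrays. Of 9 named hormone and transcription factor genes, 7 had a probe set that named them alone, with a median signal of 114. Lhb, the beta subunit of luteinizing hormone, had the highest, 609.7 ± 67.7 (SD, n = 7). Gh itself, which encodes growth hormone, had 352 ± 54.5, from 253 on replicate 6 to 404 on replicate 7, and Cga, the alpha subunit shared by several pituitary hormones, had 152 ± 47.8. Signals of this size, at the 59.0th percentile of named genes for Gh, were read without detection calls, so whether they stand above background is unknown here. Lhb and Gh were the 2 genes of this list that were tested, and 0 had an unadjusted p under 0.05 for spread.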
